A study of Mus musculus with 6 samples.

Results

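MiR-21 is made from 1 hairpin as a pair of strands, mmu-miR-21a-5p (the guide arm, below miR-21a-5p) and mmu-miR-21a-3p (the passenger arm, below miR-21a-3p), and both were followed here in LLC1 mouse Lewis lung carcinoma cells. The members were every mouse miRNA on the array whose name starts with miR-21a, which gave 2 of 566 mouse miRNAs, read by 6 of 1672 probes and 40 of 11340 spots on each array. The pair was selected on earlier results of these same arrays, in which the levels in lr-ECM 3D and 2D culture and the ratio of the arms were already known. Levels and ratios of the members are therefore a description, without a test.

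The study compared miRNA expression in LLC1 cells cultured for 48 h as a monolayer on plastic (2D, the control) with the same cells embedded above agarose in a laminin-rich matrix (lr-ECM 3D, 0.5 mg/ml). Each condition had 3 replicates by the labels, which the methods call independent, and each replicate had 1 one-colour array made from 100 ng of Cy3-labelled total RNA. Both groups were of 1 established cell line without any further treatment, and the labels do not give its passage. The 3 arrays of 2D cells shared a slide and a scanning day and the 3 arrays of lr-ECM 3D cells shared another, so slide and culture condition cannot be told apart.

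A miRNA hairpin is cut by Drosha and Dicer into a short duplex, from which Argonaute usually keeps 1 strand, the guide, while most of the passenger strand is lost. The guide then pairs through its seed, the bases near its 5′ end, with messenger RNAs and lowers their output. MiR-21 is known as an oncomiR that is abundant in many tumours, where its guide arm targets tumour suppressors such as Pdcd4.

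Both mature strands are shown because they are the molecules the probes read, and the paralogs miR-21b and miR-21c because they lie closest to the guide arm in sequence. Sequences were taken from RefSeq (GRCm38.p6), written 5′ to 3′, and the capitals mark the seed, bases 2 to 8:
miR-21a-5p: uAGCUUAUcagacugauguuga
miR-21a-3p: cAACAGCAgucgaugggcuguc
miR-21b: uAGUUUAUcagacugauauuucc
miR-21c: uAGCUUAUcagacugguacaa
The 2 arms carried different seeds. MiR-21c shared the seed of miR-21a-5p, and miR-21b and miR-21c each lay 5 edits (substitutions, insertions or deletions) from it, but neither was on the array, and whether their RNA reached the miR-21a-5p probes was not tested. Of the 566 mouse miRNAs on the array 466 matched a mature sequence by name, and 0 of those outside the pair shared a seed with either arm. The nearest of them was miR-101a-5p at 7 edits from miR-21a-5p, and miR-497a-5p at 8 edits from miR-21a-3p.

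The hairpin is shown because it places the arms against each other, and here the capitals mark the arms, miR-21a-5p first:
Mir21a hairpin: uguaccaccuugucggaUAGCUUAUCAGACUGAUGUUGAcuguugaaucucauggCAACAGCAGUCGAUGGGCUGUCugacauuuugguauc
It lies at chr11:86584067-86584158 on the minus strand (GRCm38.p6), with miR-21a-5p at chr11:86584120-86584141 and miR-21a-3p at chr11:86584082-86584103. The gene table places it inside the interval of Vmp1, which encodes a membrane protein of autophagy and runs on the same strand from 86583858 to 86683836. The hairpin was 209 bases from the 3′ end of that gene, and exon bounds were not used here. In the predicted fold (-46.2 kcal/mol) 16 bases separated the arms, and 19 of the 22 bases of miR-21a-5p paired, all 19 of them with miR-21a-3p. All 7 seed bases of miR-21a-5p and 6 of those of miR-21a-3p were paired. The first 4 bases of miR-21a-5p formed 2 G-C, 1 A-U and 1 G-U pairs, and those of miR-21a-3p formed 2 G-C and 2 A-U pairs.

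The arrays differed in brightness before any scaling. The mean signal over all miRNA probes for 2D replicates 1, 2 and 3 was 21.4, 5.03 and 40.4, while lr-ECM 3D replicates 1, 2 and 3 reached 49.9, 38.7 and 37.9. The 2D replicate 2 array was the dimmest, so results are given with and without it. Of the miRNAs known for other cell types, miR-142a-3p and miR-142a-5p (2 of 4 blood cell miRNAs, the undetected ones being miR-223-3p and miR-150-5p) were above background in both groups, with summed scaled signals of the 4 between 278 and 542 in 2D and between 257 and 274 in lr-ECM 3D. Counts above background were 0 of 2 for endothelium, 0 of 5 for epithelium and 0 of 1 for liver, and for striated muscle 0 of 4 in 2D and 1 of 4 in lr-ECM 3D (miR-206-3p). The part of such cells in the values below was not tested.

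The guide arm was bright on every array. The brighter of its 2 probes, A_54_P1307, had unscaled signals of 2139, 1113 and 4539 on 2D replicates 1, 2 and 3. The signals of lr-ECM 3D replicates 1, 2 and 3 were 3709, 3407 and 3298. The lr-ECM 3D arrays lay close together, inside the range of the 2D arrays, and the 2D values ranked as the mean signals of those arrays did. This probe had 10 spots on an array, of which 7 to 10 were used once outliers were left out, and their SD was between 87.7 and 353. All its spots were well above background, the scanner software's flag for a spot clearly brighter than its surroundings. The signal was between 38.0 and 179 times the lowest signal well above background on the same array. The second probe, A_54_P1308, also with 10 spots, read 1229, 702 and 2598 in 2D and 2350, 1939 and 1867 in lr-ECM 3D. Its order of arrays within each group matched that of the first probe, which was between 1.58 and 1.77 times as bright on every array.

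The passenger arm was close to the limit of detection. Of its 4 probes, each with 5 spots, A_54_P3447 was the brightest, with unscaled signals of 29.9, 12.3 and 64.5 on 2D replicates 1, 2 and 3. On lr-ECM 3D replicates 1, 2 and 3 it read 39.2, 30.9 and 29.97. The groups overlapped, and as for the guide arm 2D replicate 3 was the highest and 2D replicate 2 the lowest of the 6 arrays. Spots well above background numbered 2 of 5, 0 of 4 and 5 of 5 in 2D and 5 of 5, 3 of 5 and 5 of 5 in lr-ECM 3D. A probe counted as above background where at least 50% of its spots did, so miR-21a-3p was above background on 1 of 3 arrays in 2D and on 3 of 3 in lr-ECM 3D. Its signal was 1.01, 0.421 and 2.55 times the lowest signal well above background in 2D, and 1.78, 1.19 and 1.30 times that signal in lr-ECM 3D. On 2D replicate 2 1 further spot, of 149, was an outlier by the scanner's flag and was left out. With it the mean of the probe there was 39.7 in place of 12.3.

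The other probes of miR-21a-3p were dimmer. A_54_P3446 read 17.9, 11.7 and 41.4 in 2D and 21.6, 18.5 and 20.3 in lr-ECM 3D, with all 5 spots above background on 2D replicate 3, 2 on lr-ECM 3D replicate 1, 1 on lr-ECM 3D replicate 3 and 0 on the others. A_54_P3445 and A_54_P3444 had 0 spots above background on all 6 arrays, with signals between -1.82 and 8.28 and between -6.79 and -3.10. The levels of miR-21a-3p therefore rest on 1 probe, with a weaker second probe beside it. The files pair no sequence with these probes, so the part of the strand that each one reads is not known here, and signals of different probes cannot be set against each other as amounts of RNA.

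**Figure D1:**
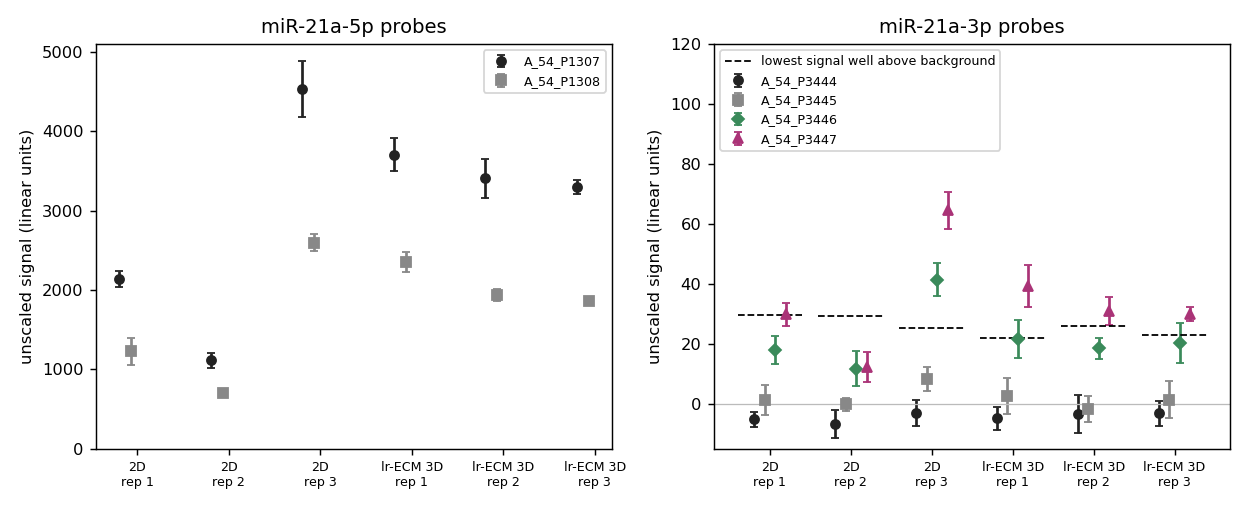
Unscaled signal (linear units) of every miR-21a-5p probe (left) and miR-21a-3p probe (right) on each array; points are means over spots, bars are the SD over spots, and dashes on the right mark the lowest signal well above background on that array. Both guide arm probes stood far above background everywhere, while the brightest passenger arm probe lay near the dashes, between 12.3 and 64.5.

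To compare the culture conditions, each array was scaled to the mean signal of the 2D arrays. The scaled signal of miR-21a-5p for 2D replicates 1, 2 and 3 was 2226, 4933 and 2503, against 1656, 1960 and 1942 for the lr-ECM 3D replicates. All 3 lr-ECM 3D values lay below all 2D values, and the spread in 2D came mainly from replicate 2. The mean log2 signal in 2D was 11.56 ± 0.62 (SD, n = 3) and that in lr-ECM 3D was 10.85 ± 0.14 (SD, n = 3), which differ by -0.71 (SE 0.33), or 1.63-fold higher in 2D. Without 2D replicate 2 the difference was -0.35.

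The scaled signal of miR-21a-3p for 2D replicates 1, 2 and 3 was 31.1, 54.6 and 35.6, against 17.5, 17.8 and 17.6 for the lr-ECM 3D replicates. Again the groups did not overlap, with lr-ECM 3D lower, although 2D replicates 1 and 2 were not above background. On 2D replicate 2 the scaling factor of 4.43 also lifted the lowest scaled signal well above background to 130, over the 54.6 given for miR-21a-3p. The mean log2 signal in 2D was 5.29 ± 0.42 (SD, n = 3) and that in lr-ECM 3D was 4.14 ± 0.01 (SD, n = 3), which differ by -1.15 (SE 0.23), or 2.22-fold higher in 2D. Without 2D replicate 2 the difference was -0.91.

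**Figure D2:**
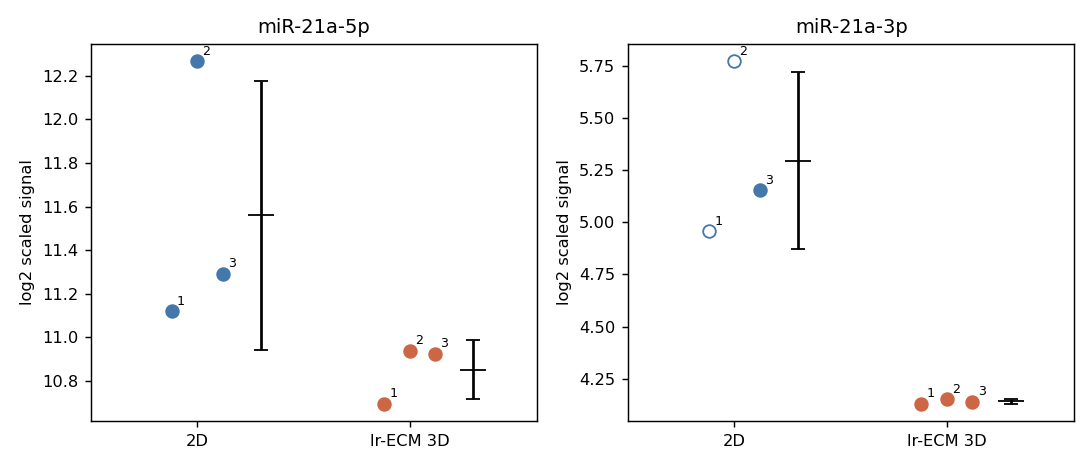
Log2 scaled signal of miR-21a-5p (left) and miR-21a-3p (right) on each array, numbered by replicate; open points were not above background, and bars show the mean and SD of 3 arrays on axes that do not start at 0. In both panels the lr-ECM 3D arrays lay below the 2D arrays, and 2D replicate 2 was the highest.

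These values can be set beside those of all miRNAs tested, the 120 that were above background on all 3 arrays of at least 1 group. By limma with Benjamini-Hochberg adjustment and a fold of at least 2, 14 of 120 (11.7%) were called, of which 13 were higher in lr-ECM 3D and 1 (0.833%) was lower. The 13 called higher were above background on 0 of 3 arrays in 2D, so they entered the test only through the group where they were high. Among the 48 miRNAs above background on all 6 arrays 0 were called, so nothing is read from the directions of the calls. Without 2D replicate 2 there were 32 calls, 27 higher and 5 lower. The 1 called lower over all arrays was miR-21a-3p, one of the values on which the pair was selected, so nothing is read from it, and it was called under 5 of 22 alternatives, not among them the fit without 2D replicate 2 and the methods' t-test. MiR-21a-5p was called in none of these. Lower in lr-ECM 3D without overlap between the groups were 27 of 120 (22.5%), both arms among them, and 38 of 120 without 2D replicate 2. The median change of the 120 was -0.11, and 76 lay below 0.

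The direction of each arm depended on how the arrays were brought to one scale. With no scaling the difference was 0.65 for miR-21a-5p and 0.20 for miR-21a-3p, higher in lr-ECM 3D, while the median of the tested miRNAs moved to 1.25. With the deposited log2 values it was 0.14 for miR-21a-5p and -0.28 for miR-21a-3p against a median of 0.76. Set against the median of the tested miRNAs, a factor per array nearly cancels. Scaling to the mean, to the 75th percentile of detected or of all probes, no scaling and the deposited values therefore count as 1 treatment. Under it miR-21a-3p lay at -1.04 and miR-21a-5p between -0.62 and -0.60, both lower in lr-ECM 3D. With quantile normalization miR-21a-3p lay at -1.72 and miR-21a-5p at 0.27, and with normexp background correction they lay at -0.62 and -0.08. MiR-21a-3p was above background on 1 of 3 arrays in 2D, so its values include undetected signals. With the total gene signal, the scanner software's sum over the probes of a miRNA, miR-21a-3p was above that median by 0.23, with its total on 2D replicate 2 at the floor. The difference of either arm between the conditions is thus measured only relative to the other miRNAs of the array.

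The ratio of the arms on 1 array needs no scaling, since a brightness factor common to the array cancels. An error in the subtracted background does not cancel. The size of the ratio depends on which probes were divided, and only its change between arrays can be read. For the brightest probe of each arm the ratio of miR-21a-5p to miR-21a-3p was 71.5, 90.3 and 70.4 on 2D replicates 1, 2 and 3. On lr-ECM 3D replicates 1, 2 and 3 it was 94.6, 110.2 and 110.0. All 3 lr-ECM 3D ratios as computed lay above all 2D ratios, but the denominator was above background on 1 of 3 arrays in 2D (replicate 3), so the 2D ratios of replicates 1 and 2 divide by an undetected signal. The mean log2 ratio in 2D was 6.26 ± 0.20 (SD, n = 3) and that in lr-ECM 3D was 6.71 ± 0.13 (SD, n = 3), which differ by 0.45 (SE 0.21). That mean for 2D includes the undetected denominators. Without 2D replicate 2 the difference was 0.56, with the denominator on 2D replicate 1 still undetected.

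The other pairs of probes are given as values. The probe A_54_P3446 was above background on 2D replicate 3 and on no other array, so ratios with it divide by an undetected signal on 5 of 6 arrays. With A_54_P3446 in the denominator the ratio was 119, 94.9 and 110 in 2D and 172, 184 and 163 in lr-ECM 3D. For A_54_P1308 over A_54_P3447 it was 41.1, 56.9 and 40.3 in 2D and 59.9, 62.7 and 62.3 in lr-ECM 3D. For A_54_P1308 over A_54_P3446 it was 68.6, 59.8 and 62.8 in 2D and 109, 105 and 92.1 in lr-ECM 3D. All 4 pairs as computed were without overlap, higher in lr-ECM 3D, but they share probes and arrays, each has undetected denominators, and they are not separate measurements or support for the order of the groups.

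The denominator limited the ratio. With the highest and the lowest single spot of A_54_P3447 the ratio ran from 60.0 to 82.5, from 64.3 to 188 and from 60.5 to 75.4 in 2D, and from 86.4 to 138, from 93.1 to 135 and from 98.1 to 121 in lr-ECM 3D. The widest of these, 2D replicate 2, covered the ratios of all 6 arrays. As miR-21a-3p was not above background there, the order of that array against the lr-ECM 3D arrays is not fixed by the measurement. Against the lowest signal well above background on that array the ratio would be 38.0. That signal is not a strict limit of detection, since miR-21a-3p on 2D replicate 1 lay at 1.01 times it and was not above background. With the outlier spot of 2D replicate 2 kept the ratio on that array was 28.6. Over the 4 arrays with miR-21a-3p above background the difference was 0.57, with 2D replicate 3 as the only 2D array. The total gene signal gave ratios of 225 and 135 on 2D replicates 1 and 3 and of 199, 216 and 206 in lr-ECM 3D, which overlapped, and its value for miR-21a-3p on 2D replicate 2 was 0.1, with no usable ratio.

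**Figure D3:**
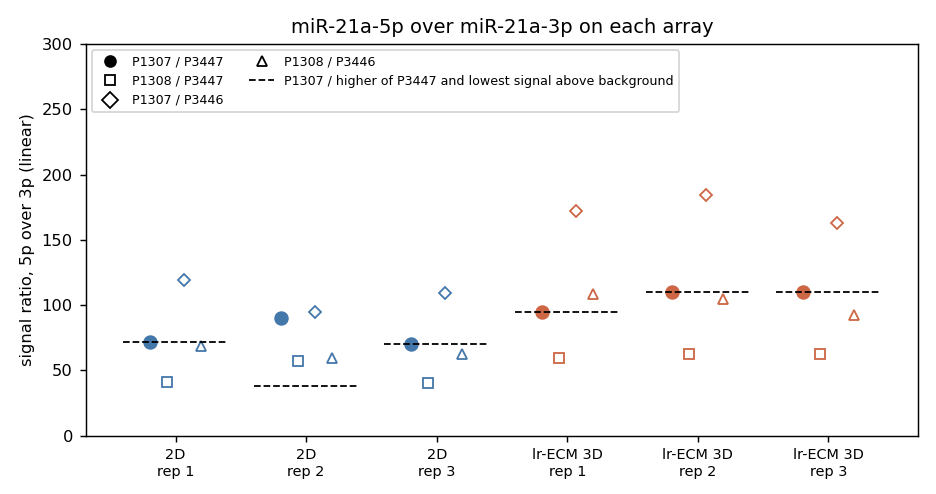
Ratio of the unscaled signals of miR-21a-5p and miR-21a-3p (linear axis) on each array for 4 pairs of probes; dashes give the ratio against the higher of the A_54_P3447 signal and the lowest signal well above background on that array. For each pair of probes the lr-ECM 3D arrays were higher as computed, with A_54_P3447 above background on 4 arrays and A_54_P3446 on 1. On 2D replicate 2, where the passenger arm was not above background, the dash at 38.0 lies under the ratio of 90.3.

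A change of arm ratio was then sought in the other hairpins. Both arms were on the array for 147 miRNAs, and both were among the tested miRNAs for 7. By limma on the log2 ratio, with Benjamini-Hochberg adjustment over these pairs, 1 of 7 (14.3%) was called, miR-574, whose ratio fell by 5.26 (SE 0.41, adjusted p = 4.39e-05). MiR-574-3p lay at the floor on all 2D arrays after background subtraction and entered the test only through lr-ECM 3D. The size of that fall, its p and the call therefore depend on the floor and on the filter, and no change of arm use is read from them. Higher in lr-ECM 3D without overlap was 1 of 7 (14.3%), miR-21a itself, the pair selected on that ratio, with the undetected denominators named above. The largest positive change outside miR-21a was that of miR-142a (0.36, SE 0.36, adjusted p = 0.617), a miRNA of blood cells, and the most negative after miR-574 that of miR-30b (-1.26, SE 0.64, adjusted p = 0.214). The remaining changes were -0.22 for miR-125a, 0.13 for miR-199a and 0.12 for miR-31, each with an adjusted p of 0.617. None of these other pairs passed the test. MiR-30b-3p was above background on 0 of 3 arrays in 2D, and miR-142a-5p and miR-125a-3p on 1 of 3 each. The 2D ratios of these pairs therefore also use undetected signals. Both arms were above background on all 6 arrays for miR-199a and miR-31 only.

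**Figure D4:**
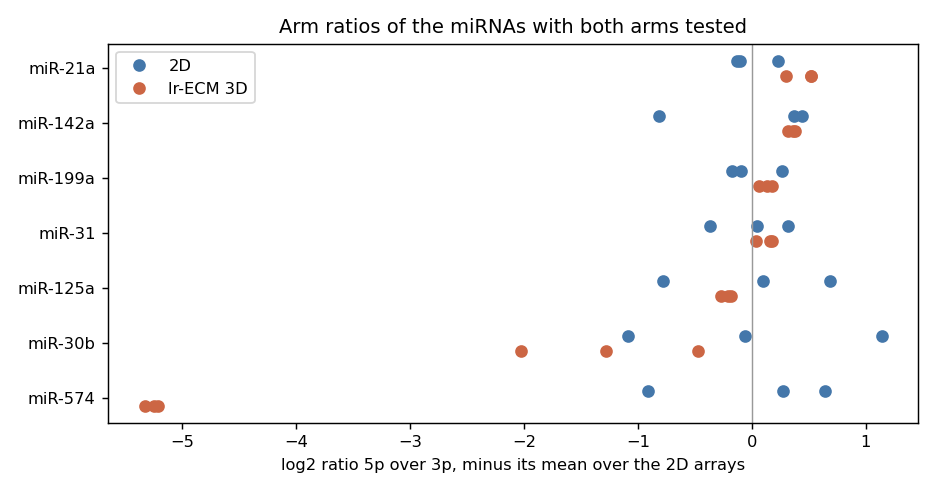
Log2 ratio of the 5p to the 3p arm on each array, minus its mean over the 2D arrays, for the 7 miRNAs with both arms tested; each point is 1 array. The lr-ECM 3D points of miR-21a lay to the right of its 2D points, those of miR-574 far to the left, and the other hairpins overlapped between the conditions. The 3p arm of miR-574 lay at the floor on the 2D arrays, and only miR-199a and miR-31 had both arms above background on all 6 arrays.

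Over the 6 arrays the scaled log2 signals of the arms had a Pearson correlation of 0.914 with each other (0.897 without 2D replicate 2). Among the other 119 tested miRNAs the other arm came 33rd for miR-21a-5p and 12th for miR-21a-3p. Closest to miR-21a-5p were miR-125b-5p (0.996), miR-199a-3p (0.991), miR-130a-3p (0.990), miR-221-3p (0.987) and miR-23b-3p (0.987). Without 2D replicate 2 these 5 had 0.974, 0.94, 0.976, 0.898 and 0.895, the last of them under the 0.897 of the other arm. Closest to miR-21a-3p were miR-214-3p (0.978), miR-27b-3p (0.972), miR-101b-3p_v20.0 (0.970), miR-15a-5p (0.957) and miR-193a-3p (0.939). Without 2D replicate 2 these had 0.948, 0.967, 0.934, 0.901 and 0.888, again with the last under the other arm. The ranks and both lists were taken over all 6 arrays. No miRNA was in both lists. MiR-21a-3p was not above background on 2D replicates 1 and 2, so its correlations over 6 arrays, the 0.914 among them, include 2 undetected points. In its list miR-101b-3p_v20.0 was above background on 4 arrays, and miR-27b-3p and miR-15a-5p on 5 each. The points share arrays and scaling factors, and these correlations are a description of 6 arrays without a test.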

How the data were processed

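Per the labels, RNA of LLC1 cells was hybridised to one-colour Agilent mouse miRNA arrays. The deposited files of each array give linear intensities per spot. The authors made them with Feature Extraction 10.7.3.1, which subtracted the background and removed spatial trends, without normalization between arrays. The authors also deposited a table of log2 values for the series, which differed from the log2 intensities, apart from a constant per array, by at most 0.049.

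Control spots and 190 to 369 outlier spots per array were left out, and no miRNA spot was saturated. The remaining spots were averaged by probe. Each array was scaled to the mean of the 2D arrays over all miRNA probes, which is how the methods' scaling to the controls was read. The factors were 1.04, 4.43 and 0.552 (2D) and 0.447, 0.575 and 0.589 (lr-ECM 3D). Values under 1 were set to 1 before taking log2. For each miRNA the probe brightest on average over the 6 arrays was used. Arm ratios used unscaled signals, floored at 1.

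Tests used lmFit and eBayes of limma 3.58.1 under R 4.3.3 (two-sided, Benjamini-Hochberg adjusted p under 0.05 and a fold of at least 2). The SE of a member's change is that of the same fit. The hairpin was folded with ViennaRNA 2.7.2. The members and all lists were chosen with earlier results of these data known. Named were the members, miRNAs sharing their seed, the 5 miRNAs closest to each by Pearson correlation, the tested arm pairs and miRNAs of other cell types as counts. The limma script was tested on simulated data. The number of arrays limits the precision.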

Additional observations from a re-analysis of the deposited data

How the results depend on the processing

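The change of miR-21a-5p kept its direction under 14 of 18 alternatives. That count includes settings that could not move it, such as a floor at 10 and the replicate number as a block (-0.71 in both). It turned to 0.65 with no scaling, 0.19 with quantile normalization, 0.32 with normexp and 0.14 with the deposited values. It ranged from -0.93 to -0.35 when 1 array was left out. The change of miR-21a-3p turned to 0.20 with no scaling and 0.68 with total gene signal, and was -0.84 after scaling to the 75th percentile of the detected probes, -1.80 with quantile normalization, -0.21 with normexp, -1.65 with outlier spots kept and -0.28 with the deposited values. It ranged from -1.32 to -0.91 when 1 array was left out. The change of the log2 arm ratio turned to -0.68 with total gene signal, where miR-21a-3p was at the floor on 2D replicate 2, and was 1.00 with outlier spots kept, 0.68 with the second miR-21a-3p probe and 0.68 with both second probes. It ranged from 0.38 to 0.56 when 1 array was left out. The second probes, the subset of arrays with miR-21a-3p detected and the count of non-overlapping miRNAs without 2D replicate 2 were chosen after seeing the data. The 14 calls became 25 with the 75th percentile over all probes, 27 with no scaling, 26 with total gene signal, 27 with the deposited values and 32 when no detection filter was set. With only the 48 miRNAs detected on all 6 arrays limma gave 0 calls, against 7 at an unadjusted p under 0.05, of which 0 reached the fold limit, and the methods' t-test gave 0 as well. Calls ranged from 12 to 32 when 1 array was left out, with 32 without 2D replicate 2. The count of called arm pairs was 25 of 147 with no filter and 0 with normexp, where 1 pair had an unadjusted p under 0.05. It was also 0 of the 2 pairs detected on all 6 arrays, with 0 at an unadjusted p, and the t-test gave 0 in both cases. The cause of these shifts was not tested. With the replicate number as a block there were 12 calls, all higher in lr-ECM 3D, so that miR-21a-3p was not called, and 1 called pair. The sizes of the members' changes were the same. The labels state no pairing by replicate number, so the numbers were not taken to pair the samples. Arrays of the same number deviated with correlations of -0.32, -0.37 and 0.16. With deviations taken from the mean of 3 arrays these values cannot decide on a pairing. Signal over background limits miR-21a-3p, which lay within 2.55 times the lowest signal well above background on all 6 arrays, and 3 arrays per group limit every value.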
